A study of Sus scrofa with 12 samples.

Results

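Peaks of N6-methyladenosine (m6A) that lay on the plus strand and were listed in a 3′ untranslated region were examined in the longissimus dorsi, the long back muscle, of 5-day-old pigs. They were all rows of 6 deposited peak lists with strand "+" and an annotation beginning with 3′ UTR, a rule that uses no measured value. They numbered 2004 of 13487 peaks in all, and of 6945 peaks on the plus strand. A few intervals are listed under 2 gene identifiers, so that the 2004 rows hold 1991 distinct intervals. Minus-strand peaks were left out because their untranslated-region classes are unreliable in these lists. The study compared 2 breeds, Large White (LargeWhite in the labels) and Ningxiang (NingXIANG), with 3 replicates per breed and 1 list per replicate. Each replicate had an immunoprecipitated and an input library, and mRNA fragments were enriched with an m6A antibody (methylated RNA immunoprecipitation and sequencing, MeRIP-seq). No treatment or other difference between the breeds is labelled, and the labels do not say whether each replicate came from its own pig or from pooled pigs. P-values therefore cover the spread of these libraries only, and part of it may be technical.

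m6A is laid on mRNA by a methyltransferase complex that works mainly at a short adenosine-centred motif, and it is known for a high density around stop codons and in 3′ untranslated regions. The 3′ untranslated region follows the coding sequence and carries the binding sites of microRNAs and of proteins that govern the stability, location and translation of the message. Reader proteins that bind m6A there can speed the decay of a transcript or stabilise it. In muscle such control acts on messages of fibre assembly, calcium handling and metabolism.

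Each peak carries the authors' fold over input and a p-value, both of which depend on how well the transcript was covered, so they describe or rank peaks within a list and do not measure a level of methylation. Sequencing depth is unknown from the lists. Absence from a list means that no peak was called and does not show an unmethylated message. Of 10 markers of muscle fibres, 7 had a peak of any class and strand in all 6 lists, among them CKM, DES and RYR1, while ACTA1, NEB and TTN had none. Lists held 1019 to 1294 plus-strand peaks each.

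Most of the 3′ untranslated peaks ended close to the annotated gene end. Here the gene end is the one listed with each peak. It differed between peaks of some genes, PALM2AKAP2 among them, so it need not be the end of the whole gene. For 1983 peaks with an undisputed gene, the median distance from the end of the peak to the gene end was 321 bp. The quartiles were 60 and 879.5 bp. In all, 1238 of them (62.4%) ended within 500 bp and 324 (16.3%) ended exactly at the annotated end. By list, 26.6% to 30.5% ended within 100 bp, 30% to 38% beyond that and up to 500 bp, 27.0% to 31.5% between 500 and 2000 bp, and 6.65% to 8.71% farther away. The 2 breeds overlapped in each of these shares.

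**Figure D1:**
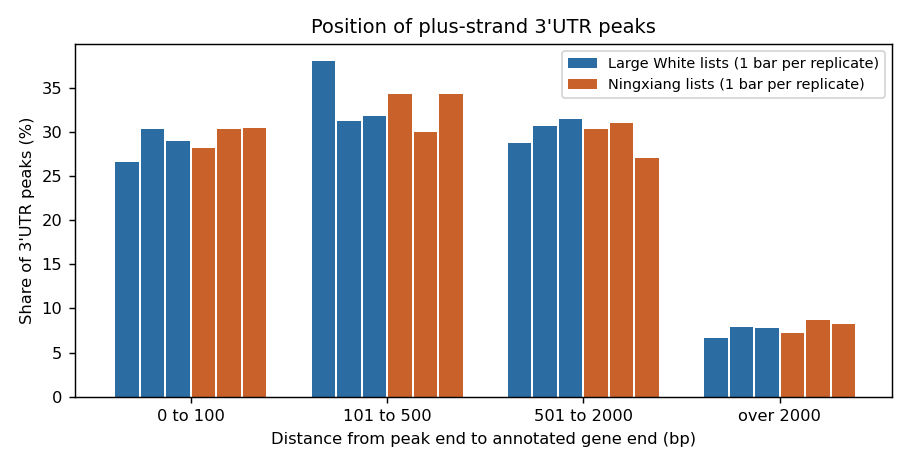
Share of plus-strand 3′ untranslated peaks (y axis, percent of the list) by distance from the end of the peak to the annotated gene end (x axis, bp), 1 bar per list. The gene end is the one listed with each peak. The first 3 distance classes each hold between 26.6% and 38% of a list, the last at most 8.71%, and the breeds overlap in each class.

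The median fold lay within a narrow range over these distances, while the share that recurred was highest far from the gene end. The median fold over all lists was 2.76 for peaks within 100 bp of the gene end, 2.51 from there to 500 bp, 2.585 between 500 and 2000 bp and 2.64 beyond. Of the peaks beyond 2000 bp, 52.3% were met by a peak in each of the other 5 lists, against 40.2% to 42.3% in the nearer classes. Only 20 to 28 peaks per list lay that far out, and their share ranged from 42.9% to 65.0% between lists. These differences were not tested.

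Folds of single peaks ran from 1.54 to 35.4. List medians were 2.70, 2.66 and 2.58 in Large White replicates 1, 2 and 3 and 2.41, 2.65 and 2.61 in Ningxiang. From 35 to 77 peaks per list had a fold over 4. DIO3, an enzyme that inactivates thyroid hormone, had a fold of 35.4 in Large White replicate 3 and 3.92 in Ningxiang replicate 3, and no peak in the other 4 lists. EDN1, the vasoconstrictor endothelin, had 3.04, 10.5 and 21.7 in the Large White replicates and 11.8 in Ningxiang replicate 3. The weakest peak was that of SLC7A7, an amino acid transporter, with a log10 p of -2.13. High folds occurred both with few lists and with all of them. LIN37, with 20.9 in Large White replicate 1, and AUTS2, a regulator of neural development with 20 in Ningxiang replicate 3, had a peak in all 6 lists, at a log10 p of -24.1 and -88.4 in those replicates. AUTS2 folds in the other lists ran from 2.79 to 6.4.

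Of the 2004 peaks, 561 (28.0%) crossed a splice junction, that is, they covered 2 or more blocks of exon sequence, and 1443 lay in 1 block. The crossing peaks spanned a median of 1880 bp on the genome but covered 298 exonic bases, against 208 for peaks in 1 block. Their median log10 p was -17.8, against -9.33, while the median folds were 2.65 and 2.59. They also recurred more: 59.2% were met in all other lists, against 35.2% of peaks in 1 block, a difference present in each of the 6 lists. The crossing peaks thus had more exonic bases, a lower p and a higher recurrence. Whether exonic length by itself goes with p or recurrence was not tested.

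Set against other plus-strand peaks of the same list, 3′ untranslated peaks crossed splice junctions much less often. The share was 27.8% ± 2.74 (SD, n = 6 lists) in 3′ untranslated regions, 66.4% ± 3.09 in the exon class and 79.5% ± 4.27 in 5′ untranslated regions, lower in 6 of 6 lists in both comparisons. The median fold was 2.60 ± 0.103 against 2.47 ± 0.0555 in the exon class, higher in 6 of 6 lists by 0.131 ± 0.0855. The median log10 p was -11.2 ± 0.487 against -9.65 ± 0.440, lower in 6 of 6 lists. The share of peaks met in all other 5 lists was 42.3% ± 4.35 against 36.3% ± 3.73, higher in 6 of 6 lists by 6.02 percentage points ± 2.48.

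The exact two-sided sign-flip permutation test over the 6 lists gave p = 0.03125 for each of these 5 differences, the smallest that 6 lists allow, and a Benjamini-Hochberg adjusted p of 0.0625 over 10 comparisons. None therefore passed 0.05 after adjustment. The lists hold many of the same sites, so they are not independent in these measures. With 1 peak per gene and class the difference in fold against the exon class was 0.0267 (exact permutation p = 0.3125), and that in log10 p was -0.967. For peaks in 1 block the order against the exon class turned round, with a difference in fold of -0.0875 (exact permutation p = 0.1875) and a difference in recurrence of -3.93 percentage points (exact permutation p = 0.15625), while the difference in log10 p was -0.302. Against the 609 exon-class peaks of last exons, none of which crosses a junction, the median fold was also lower, 2.60 against 2.91 ± 0.334 (SD, n = 6 lists), in 5 of 6 lists (exact permutation p = 0.0625).

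With all peaks, exonic length, and fold and recurrence against 5′ untranslated peaks, showed no difference that held in every list. For peaks in 1 block, length differed from the exon class by -17.4 bp, and fold from 5′ untranslated peaks by -0.2. The exact permutation p was 0.03125 for both (n = 6 lists, not adjusted). Only 15 to 27 of the 5′ untranslated peaks per list lay in 1 block. The median exonic length was 215 ± 11.7 bp in 3′ untranslated regions, 210.3 ± 0.516 bp in the exon class (exact permutation p = 0.5, n = 6 lists) and 219 ± 13.9 bp in 5′ untranslated regions (exact permutation p = 0.875). The median fold of 5′ untranslated peaks was 2.72 ± 0.266, with 3 lists in each direction (exact permutation p = 0.40625, n = 6, adjusted p = 0.508). Of the 5′ untranslated peaks 35.4% ± 3.76 were met in all other lists, a lower share in 5 of 6 lists (exact permutation p = 0.0625, n = 6, adjusted p = 0.104). That difference of 6.93 percentage points was 8.58 with 1 peak per gene and class and 23.8 in genes with both classes. The exact permutation p was 0.03125 for both (not adjusted). It was 2.51 points with the stronger 50% of peaks and 3.13 without Large White replicate 3 (exact permutation p = 0.375 for both). The median log10 p of 5′ untranslated peaks was -12.4 ± 1.53, so that the 3′ untranslated value was higher by 1.19 ± 1.64, in 4 of 6 lists (exact permutation p = 0.15625, adjusted p = 0.223). A p of this size does not show that the classes are alike.

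**Figure D2:**
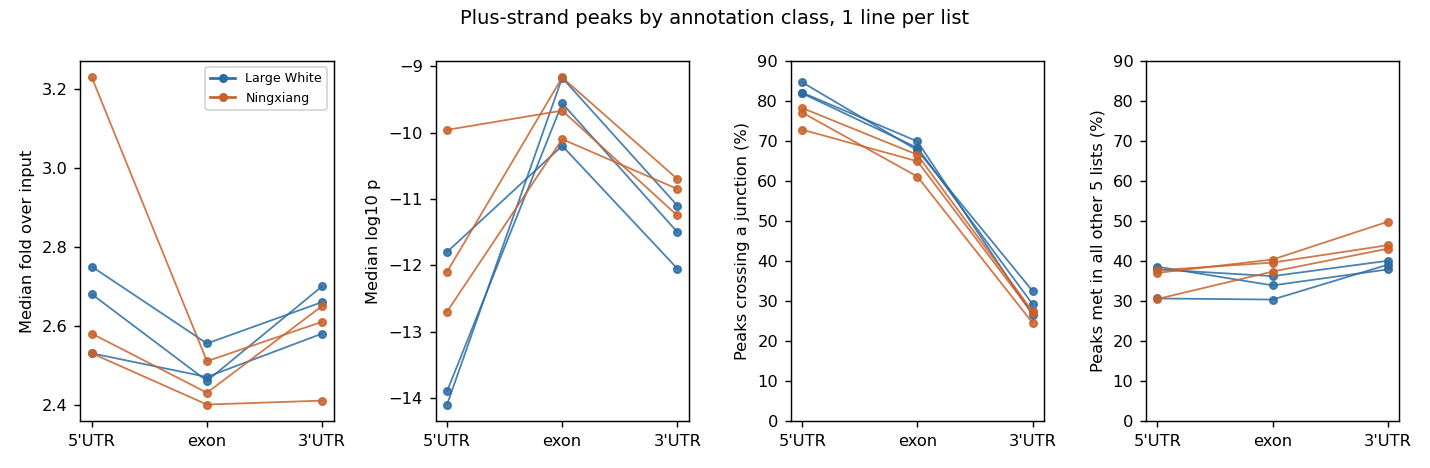
Median fold over input, median log10 p, share of peaks crossing a splice junction and share met by a peak in all other 5 lists (y axes), for plus-strand 5′ untranslated, exon and 3′ untranslated peaks (x axis), with 1 line per list. From exon to 3′ untranslated class, fold and recurrence are higher and log10 p and junction share lower in 6 of 6 lists.

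Joined wherever their exonic blocks overlapped by at least 1 base, the plus-strand peaks made 2052 regions, of which 666 held a 3′ untranslated peak. Of these 666 regions, 174 (26.1%) were held in all 6 lists by a peak of any class, where 20.6% of all plus-strand regions and 17.9% of the 1386 other regions were. At the other end, 176 (26.4%) were held in 1 list only, against 36.1% of the other regions. Class calls were not fixed from list to list: 160 regions (24%) also held 478 peaks of another class, 428 of the exon class and 50 of 5′ untranslated regions. A region counts as 3′ untranslated if a peak of any list is so classed, so regions in more lists had more chances to enter this set, and the difference between 26.1% and 17.9% is not a measure of recurrence free of that choice. Counting 3′ untranslated peaks alone, 118 regions on 115 genes were held in all 6 lists, or 17.7% of the 666. The 17.9% of the other regions counts peaks of any class, so these shares rest on unlike rules and do not show equal recurrence.

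**Figure D3:**
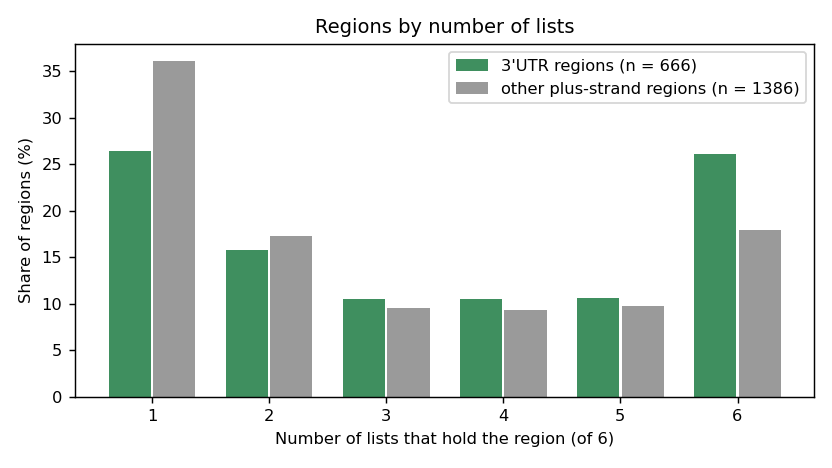
Share of regions (y axis, percent) by the number of the 6 lists that hold them (x axis), for 666 regions with a 3′ untranslated peak and 1386 other plus-strand regions. The 3′ untranslated regions are fewer at 1 list (26.4% against 36.1%) and more at 6 lists (26.1% against 17.9%).

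The regions lay on 575 genes, 52.4% of the 1097 genes with any plus-strand peak. Of these genes, 187 carried 3′ untranslated peaks alone and 355 also carried exon-class peaks. A 3′ untranslated peak was present in all 6 lists for 120 genes and in 1 list for 174. Most genes, 500 of 575, had 1 region, and 67 had 2.

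Among the 118 regions held in every list, the 10 with the highest lowest fold were led by LIN37, a subunit of a complex that represses cell cycle genes (chromosome 6, 45180911 to 45181383, susScr11, ending at the gene end). Its folds were 20.9, 9.63 and 5.19 in Large White replicates 1, 2 and 3 and 4.41, 6.35 and 9.01 in Ningxiang. The values of the breeds overlapped, and Large White replicate 1 stood highest. RING1, a ubiquitin ligase of the Polycomb repressive complex, had 7.48, 3.72 and 4.67 in Large White and 6.31, 4.29 and 6.26 in Ningxiang, also overlapping, with a log10 p of -19.8 or lower throughout. BHLHE40, a repressor tied to the circadian clock, varied least: its folds were 3.19, 3.53 and 3.46 in Large White and 3.10, 3.20 and 3.30 in Ningxiang, with a log10 p of -50.0 or lower.

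SLC25A27, a mitochondrial carrier related to the uncoupling proteins, had 5.82, 5.11 and 9.16 in Large White and 4.69, 3.75 and 4.32 in Ningxiang. These are the folds of the lowest-p peak of each list, and the Large White values were all above the Ningxiang values. A weaker SLC25A27 peak of Large White replicate 2 in the same region had a fold of 3.55, below each Ningxiang value. CREB1, the transcription factor that answers cyclic AMP, ranged from 3.00 to 6.04, and its region lay far from the gene end, at a median of 5847 bp. SPI1, a transcription factor of myeloid cells, ranged from 2.98 to 7.94, and ZCCHC8, a subunit of a nuclear RNA decay complex, from 3.03 to 4.83. CREB1 was weak by p in Ningxiang replicate 2, with a log10 p of -4.71.

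The nuclear receptors PPARG, which drives adipocyte differentiation, and PPARD, a regulator of fatty acid oxidation in muscle, were also among them. PPARG peaks covered 361 to 421 exonic bases in 2 blocks on both sides of an intron (chromosome 13, 68416300 to 68433797). Its folds were 8.12, 5.69 and 4.93 in Large White and 3.06, 4.36 and 3.64 in Ningxiang, so that each Large White value lay above each Ningxiang value. PPARD (chromosome 7, 31292689 to 31294023) had 2.96, 3.26 and 4.15 in Large White and 3.23, 4.24 and 2.95 in Ningxiang, which overlap. By the lowest-p peak of each list, 10 of the 118 regions (8.47%) had every Large White fold above every Ningxiang fold. Of the 422 plus-strand regions held in all 6 lists, 8.29% did. The reverse held for 5 of the 118 (4.24%), against 5.92% of the 422. Both shares are near the background, and a fold depends on coverage, so the PPARG order is a description of these lists.

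**Figure D4:**
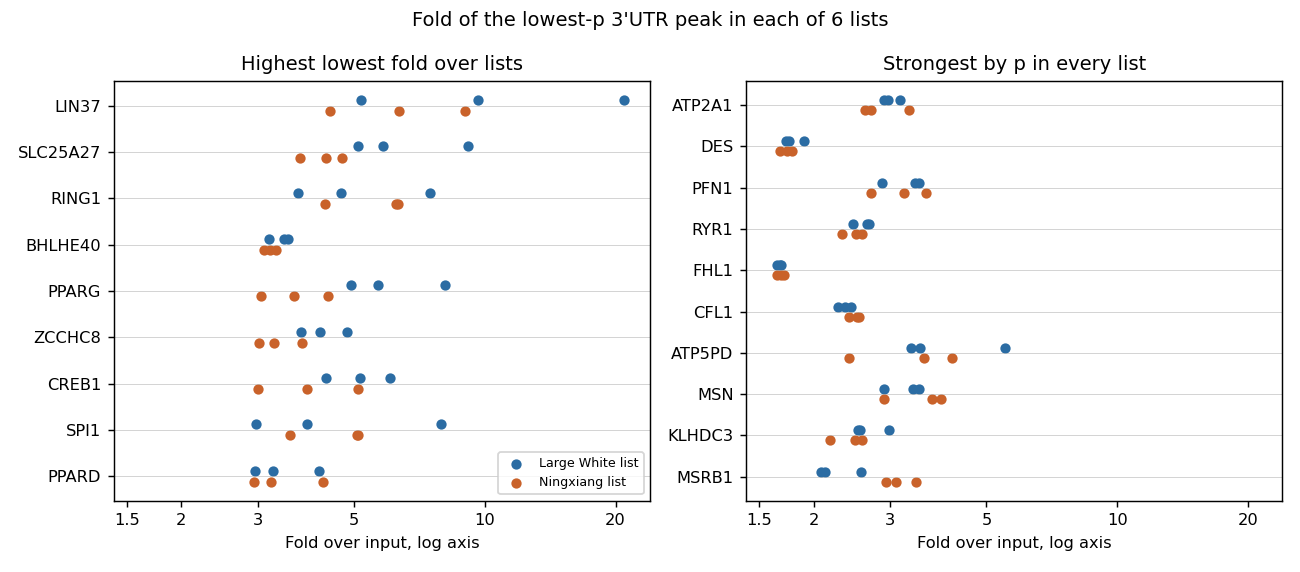
Fold over input (x axis, log scale) of the lowest-p 3′ untranslated peak in each of 6 lists, for 9 of the 10 regions with the highest lowest fold (left) and the 10 strongest by p in every list (right). LIN37 spreads from 4.41 to 20.9, while DES and FHL1 stay between 1.65 and 1.90 in all 6 lists.

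Of the 10 strongest regions by p, ATP2A1, DES, RYR1 and FHL1 belong to muscle genes. ATP2A1, the calcium pump of the sarcoplasmic reticulum in fast fibres, came first (chromosome 3, 18567240 to 18568312), with a log10 p of -2030 or lower in every list. Its folds were 2.90, 3.16 and 2.97 in Large White and 2.71, 2.63 and 3.32 in Ningxiang. DES, the muscle intermediate filament desmin, had 1.90, 1.73 and 1.76 in Large White and 1.78, 1.74 and 1.67 in Ningxiang, with a log10 p of -745 or lower. RYR1, the calcium release channel that works opposite ATP2A1, had 2.69, 2.46 and 2.65 in Large White and 2.33, 2.5 and 2.59 in Ningxiang, at the gene end. FHL1, a LIM-domain protein of muscle, stayed between 1.65 and 1.71. In these 4 genes the breeds overlapped and the lists differed little.

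The actin regulators were PFN1, the actin monomer binder profilin, from 2.71 to 3.62, CFL1, the actin-severing cofilin, from 2.28 to 2.55, and MSN, moesin, which ties actin to the membrane, from 2.90 to 3.93. ATP5PD, a subunit of the mitochondrial ATP synthase, ranged from 2.41 to 5.52 and KLHDC3, a substrate receptor of a ubiquitin ligase, from 2.18 to 2.98. MSRB1, which repairs oxidised methionine, had 2.13, 2.08 and 2.57 in Large White and 3.09, 2.93 and 3.45 in Ningxiang. Its log10 p was -71.5, -78.1 and -82.8 in Large White and -228, -192 and -230 in Ningxiang. Ningxiang values were thus the higher in fold and the lower in log10 p, without overlap, for a peak at nearly the same place (chromosome 3, 40020929 to 40021287). MSRB1 is 1 of the 5 regions with that order.

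By gene list, 10 of 15 lipid and adipogenesis genes with a plus-strand peak had one in the 3′ untranslated region, 4 of them in all 6 lists, beside 52.4% of all genes with a plus-strand peak. The 4 were PPARG, PPARD, FABP4, the fatty acid carrier of fat cells, and CPT1A, an enzyme of fatty acid import into mitochondria. FABP4 folds were 2.0, 1.96 and 1.97 in Large White and 1.83, 1.78 and 1.80 in Ningxiang, low but without overlap. CPT1A had 3 separate regions, held in 5, 5 and 2 lists, so that its 6 lists do not share 1 site. ADIPOQ, the hormone adiponectin, and LPL, which releases fatty acids from blood lipids, had a peak in 2 replicates of each breed. PLIN5, a lipid droplet protein, did too. FASN, SREBF1, CEBPB, PLIN3 and PNPLA2 had plus-strand peaks of other classes alone.

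Of the sarcomere and membrane list, 6 of 10 genes with a plus-strand peak had one in the 3′ untranslated region: ATP2A1, DES and RYR1 in all 6 lists, ATP2A2, the slow-fibre pump, in 2, and MYOT, a Z-disc protein, and TPM3, a tropomyosin, in 1 each. ACTC1, MYH7, TNNI2 and TNNT3 had none there. Among myogenic regulators it was 2 of 3. MEF2A, a transcription factor that acts with the myogenic factors, had folds of 4.39, 3.69 and 3.21 in Large White and 3.43, 2.36 and 4.60 in Ningxiang, which overlap (chromosome 1, 138507624 to 138508281). ACVR2B, a receptor of myostatin, had a peak in 2 Large White replicates and 1 Ningxiang replicate. IGF1, the growth factor, had one in 5 lists, with folds from 1.98 to 2.85.

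Atrophy and autophagy genes had a 3′ untranslated peak in 5 of 7 cases, mostly in 1 list: ATG7, BECN1, FBXO32 and WIPI1 in 1 and WIPI2 in 3. Of 6 genes of the TGF-beta, BMP, Wnt and Notch list, HES1, a target of Notch, had one in 4 lists, BMPR1A in 3, and SMAD3 and TGFBR1 in 1. ELAVL1, an RNA-binding protein, had such a peak in Ningxiang replicate 1. It was the only gene of the 24 in the m6A machinery list with a plus-strand peak of any class. Of 7 immediate early genes with a plus-strand peak, 2 had one in the 3′ untranslated region. None of these shares of a list was tested against the 52.4% over all genes, and the lists are short. CCN2, a matrix protein, had a peak in 4 lists and FOS, JUN, KLF6, KLF10 and SOCS3 had none there.

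IER5, an immediate early regulator, had a peak in all 6 lists (chromosome 9, 122634702 to 122635534). The folds of its lowest-p peak were 2.87, 2.32 and 1.94 in Large White and 4.21, 4.84 and 5.30 in Ningxiang, without overlap. The chosen peaks did not lie at 1 site. In Large White replicate 2 the peak ran from 122635207 to 122635534, and in Ningxiang replicate 1 from 122634910 to 122635118. A weaker IER5 peak of Large White replicate 3 had a fold of 3.91, which is also below the Ningxiang values.

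A few genes carried several separate 3′ untranslated regions, up to 6. PEG10, an imprinted gene derived from a retrotransposon, had 6, and the longest of all, 1676 exonic bases (chromosome 9, 74482914 to 74484589). That region joins several shorter peaks. The folds of its lowest-p peak were 3.6, 3.41 and 2.98 in Large White and 1.82, 3.58 and 4.97 in Ningxiang, which overlap. These peaks did not lie at 1 site. In Ningxiang replicate 1 the peak ran from 74483602 to 74483931, and in Ningxiang replicate 3 from 74482974 to 74483273. A second PEG10 region, 74481987 to 74482316, was also held in all 6 lists, with folds from 2.29 to 4.15, while the other 4 were held in 1 or 2. PALM2AKAP2, which encodes an anchor of protein kinase A, had 6 as well, of which 3 were held in all 6 lists by a 3′ untranslated peak and 3 in 1 list.

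NCALD, a neuronal calcium sensor, had 4 regions on 14 peaks, none of them held in all 6 lists. EGFR, the receptor of epidermal growth factor, had the third longest region, 1403 exonic bases in 4 blocks (chromosome 9, 139471066 to 139474114). The folds of its lowest-p peak were 2.97, 2.23 and 2.39 in Large White and 3.78, 3.33 and 3.50 in Ningxiang, without overlap. A weaker EGFR peak of Ningxiang replicate 2 there had 2.87, below the 2.97 of Large White replicate 1. EGFR is another of the 5 regions with Ningxiang above Large White, and each list held 1 or 2 separate peaks there.

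For 21 peaks on 5 genes the listed gene and the numeric gene identifier of the same row named different RefSeq genes. All 21 lay inside the gene of the identifier. The clearest was TIMP1, an inhibitor of matrix metalloproteinases, whose peaks are listed under SYN1. TIMP1 peaks were present in all 6 lists (chromosome X, 42106053 to 42106289) with folds of 3.75, 3.68 and 2.58 in Large White and 2.73, 2.74 and 3.32 in Ningxiang, which overlap. PPP2R5D, a regulatory subunit of a phosphatase, was listed as MEA1 in 5 lists, with folds from 1.88 to 2.22. SLA-3, a swine major histocompatibility antigen, had peaks in 5 lists, but reads may be shared with near-identical family members and its assignment is uncertain. PYURF peaks in 4 lists are rows of PIGY intervals entered a second time, so the gene is ambiguous, and the TPM3 peak of 1 list is entered under another locus.

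Large White lists held more 3′ untranslated peaks than Ningxiang lists, without overlap. There were 380, 347 and 366 in Large White replicates 1, 2 and 3, and 279, 314 and 318 in Ningxiang. The means were 364 ± 16.6 and 304 ± 21.5 (SD, n = 3 per breed), and the exact two-sided permutation p was 0.1, the smallest that 3 against 3 allow (adjusted p = 0.233 over 7 comparisons). Genes with such a peak numbered 325 ± 16.1 and 276 ± 18.7, and the exonic sequence covered was 99.3 ± 9.19 kb and 78.2 ± 6.42 kb (SD, n = 3; exact permutation p = 0.1 for both, adjusted p = 0.233).

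Over any class and strand, Large White lists held 2214 to 2533 peaks and Ningxiang lists 2034 to 2222, which overlap. Plus-strand peaks of other classes ranged from 813 to 928 per Large White list and from 740 to 838 per Ningxiang list, which overlap. Plus-strand peaks of all classes together numbered 1236, 1160 and 1294 in Large White and 1019, 1080 and 1156 in Ningxiang. These totals do not overlap either, so the order of the breeds is not particular to 3′ untranslated peaks. When each list was cut to its 2034 strongest peaks, the length of the shortest list, the difference in 3′ untranslated peaks was 27 in place of 60.7, and in genes 19.3 in place of 49, still without overlap (exact permutation p = 0.1, n = 3). In the full lists the share of plus-strand peaks, 30.7%, 29.9% and 28.3% against 27.4%, 29.1% and 27.5%, overlapped between breeds (exact permutation p = 0.2, n = 3, adjusted p = 0.35). With the same cut the shares differed by 2.04 percentage points (exact permutation p = 0.1, n = 3). The stronger 50% of each list gave 1.39 points (exact permutation p = 0.1), and a fold of 2 or more gave 2.34 (exact permutation p = 0.3).

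In the full lists the breeds overlapped in the build of the peaks. The share crossing a junction was 29.4% ± 3.01 in Large White and 26.3% ± 1.53 in Ningxiang (SD, n = 3; exact permutation p = 0.3). Median exonic length was 220 ± 16.5 bp and 210.2 ± 0.289 bp (exact permutation p = 0.4, n = 3), with Large White replicate 3 alone at 239 bp. The median distance to the gene end was 316.5 ± 16.1 bp and 316 ± 19.1 bp (exact permutation p = 1, n = 3). In cut lists the build differed more. With the same number of peaks per list, Large White exceeded Ningxiang by 5.31 points in junction share (exact permutation p = 0.1) and 22.8 bp in length (exact permutation p = 0.2). With the stronger 50% these differences were 3.38 points (exact permutation p = 0.4) and 29.2 bp (exact permutation p = 0.1).

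**Figure D5:**
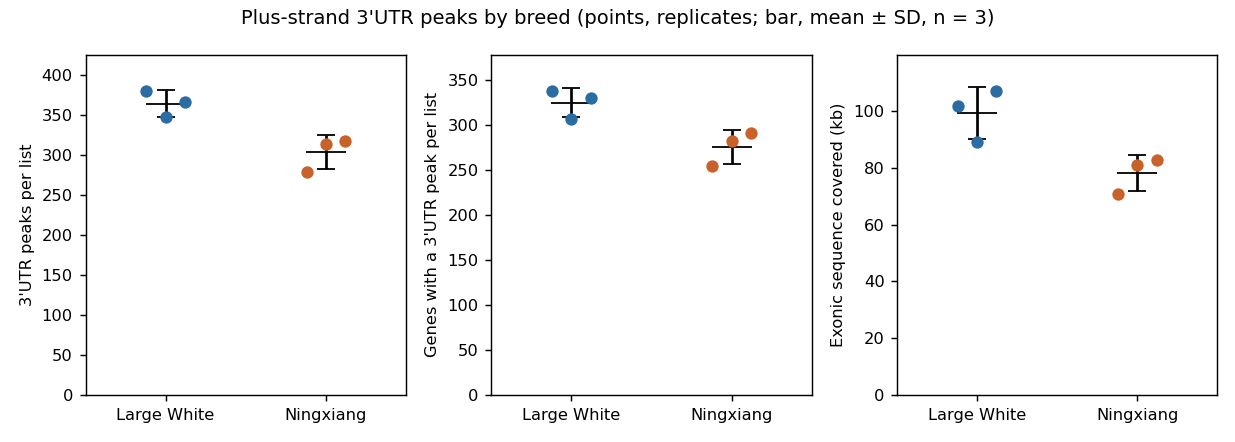
Number of plus-strand 3′ untranslated peaks, number of genes with such a peak and exonic sequence covered in kb (y axes, from 0) in Large White and Ningxiang lists (x axis); points are replicates and bars the mean ± SD, n = 3. In each panel the 3 Large White lists sit above the 3 Ningxiang lists.

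The overlap of covered exonic bases between lists, as a Jaccard index (shared bases over bases covered by either list), was 0.371 to 0.415 among Large White pairs and 0.356 to 0.394 among Ningxiang pairs. Between breeds the 9 pairs ranged from 0.313 to 0.393, so they overlap with both. The mean over all 15 pairs was 0.370 for 3′ untranslated peaks and 0.374 for other plus-strand peaks, with the former higher in 7 of 15 pairs. Each list enters several pairs, which are therefore not independent.

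Regions of 1 breed alone, held in 3 of 3 of its lists and 0 of 3 of the other, were few. Each breed had 6 among the 666 regions, or 0.901%. Over all plus-strand regions the shares were 1.41% for Large White and 0.731% for Ningxiang, so neither count departs far from its background. For a single region such a split cannot be called different. Leaving out any 1 list raised the Large White count to between 11 and 19 and the Ningxiang count to between 8 and 11. The rule is then looser, since fewer lists of the breed must be filled or fewer of the other breed be empty.

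The Large White regions described here lay on SGK1, CNN1, NFYA, GHITM and MCEE. SGK1, a kinase that regulates ion transport (chromosome 1, 29752921 to 29753251), had folds of 2.62, 2.59 and 2.21, and 2 Ningxiang lists held exon-class SGK1 peaks upstream. CNN1, the smooth muscle protein calponin (chromosome 2, 70190459 to 70190756), had 1.86, 2.02 and 1.90 with a log10 p of -41.2 or lower, and all 3 Ningxiang lists held exon-class CNN1 peaks upstream. NFYA, the regulatory subunit of a CCAAT-binding factor, had 4.56, 2.59 and 3.78, and GHITM, a protein of the inner mitochondrial membrane, 2.19, 2.75 and 1.89. GHITM had no plus-strand peak in any Ningxiang list, while NFYA had an exon-class peak upstream in 1 of them.

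MCEE, an enzyme of propionate breakdown, was held by a 3′ untranslated peak in 2 of the 3 lists and by an exon-class peak in the other. MCEE folds were 14.0 and 3.38. With 3′ untranslated peaks alone as the measure the Large White count was 8, and MCEE was not among them. Restricted to the 50% of peaks with the lowest p, CNN1 and SGK1 remained of the 6 genes.

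The Ningxiang regions lay on COL5A1, HK1, WIPI2, UNC5B, LIN7B and LAYN, and all 6 were held by 3′ untranslated peaks. COL5A1, a chain of fibrillar collagen (chromosome 1, 274082814 to 274083114), was by far the strongest, with folds of 2.5, 1.87 and 2.48 and a log10 p of -239, -101 and -268. All 3 Large White lists held exon-class COL5A1 peaks far upstream. HK1, a hexokinase of glycolysis, had 1.62, 2.36 and 2.06, and WIPI2, which acts in autophagosome formation, 3.38, 1.85 and 4.52. UNC5B, a netrin receptor (chromosome 14, 74204539 to 74204777), had 4.91, 5.06 and 3.68, while 2 Large White lists held UNC5B peaks in other exons.

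LIN7B, a cell junction scaffold, had 2.59, 3.00 and 2.97, and LAYN, a hyaluronan receptor, 3.21, 2.21 and 2.08. The LAYN peaks of replicates 1 and 2 shared 1 base, and LAYN dropped out when an overlap of 50% of the shorter peak was asked. Restricted likewise, the Ningxiang count was 3, and COL5A1 alone remained of the 6 genes. LIN7B and WIPI2 had no plus-strand peak of any class in Large White lists. Exon-class peaks upstream were held by 2 Large White lists in LAYN and by 1 in HK1.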

How the data were processed

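MeRIP-seq was done on immunoprecipitated and input samples, 3 of each per breed. The authors deposited 6 peak lists, 1 per replicate, each named in the descriptions of an immunoprecipitated and its input sample, and assigned here to the former. Per the file headers each peak has a fold (a linear ratio over input), a p-value and its log10 forms, which were treated as a score. ChIPseeker 1.30.2, HOMER and FastQC 0.11.9 and the build susScr11 come from the submitters' processing notes. Which aligner and which caller were used is not given in the sources used here. Depth is unknown.

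Starts were made 1-based and exonic blocks rebuilt from the block columns. Peaks were joined at an overlap of 1 exonic base or more. Gene names are those listed, except where the gene identifier named another gene in the RefSeq table (Sscrofa11.1), which held 567 of 577 transcripts. Breeds were compared with exact permutation tests and classes with exact sign-flip tests within lists, with Benjamini-Hochberg adjustment. Code was tested on simulated data. Tools were NumPy 2.4.6, SciPy 1.17.1 and pandas 2.3.3 under Python 3.11.15.

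Named genes were the 10 regions in all 6 lists with the highest lowest fold, the 10 with the lowest highest log10 p, breed-only regions, gene-list members with a 3′ untranslated peak in all 6 lists, the 3 genes with most regions and the 3 longest regions; others are named as counts or extremes, chosen after their values were seen. Members and lists were chosen with earlier results of these data known. Sequence was not analysed here, and some regions that meet these rules are not reported here.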

Additional observations from a re-analysis of the deposited data

How the results depend on the processing

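Alternatives were the stronger 50% of each list, the same number of peaks per list, a fold of 2 or more, other overlap and presence rules, 1 peak per gene, genes with both classes, last-exon or 1-block peaks, and leaving out each list. Leaving out peaks with disputed genes, and counting repeated intervals once, were chosen after seeing the data; neither changed a direction or a call. In the comparison of breeds only the distance to the gene end changed sign: it was -18 bp with the stronger 50%, and between -10.5 and 9.75 bp without 1 list. With a replicate block by number the difference was 60.7 peaks (exact permutation p = 0.25, the smallest that 3 pairs allow), and the block changed no call. Same-numbered lists did not deviate together (r from -0.0475 to 0.0416), so the numbers were not read as a pairing. Against the exon class, 1-block peaks gave -0.0875 in fold, -17.4 bp in length and -3.93 points in recurrence. The stronger 50% gave -4.17 bp and 0.517 in log10 p. Last-exon peaks gave -0.307 in fold and 27.8 points in junction share, since none of them crosses a junction. Against 5′ untranslated peaks, length differed by 0.917 bp with 1 peak per gene, 30 bp in genes with both classes, 16.8 bp for 1-block peaks and -10.5 to 0.700 bp without 1 list, and log10 p, 1.19 as reported, by -3.33 in genes with both classes and -0.387 for 1-block peaks. Against the exon class, log10 p, -1.60 as reported, differed by -0.855 in genes with both classes. Between breeds, the stronger 50% gave a difference of 30 peaks and 25.7 genes. The causes were not tested. Without 1 list, Large White only regions numbered 11 to 19, Ningxiang only regions 8 to 11, and the share of regions in all remaining lists was 27.9% to 31.4%. Ningxiang only regions numbered 3 with the stronger 50%, and 17.7% of regions were in all lists by 3′ untranslated peaks alone. The sequence alternatives were not run, as sequence was not analysed here.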

Other observations

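Among markers of other cell types with a plus-strand peak, 3 of 3 of adipocytes and 2 of 5 of fibroblasts and fibro-adipogenic cells had one in the 3′ untranslated region. It was 1 of 3 of endothelium, 1 of 3 of macrophages and leukocytes and 1 of 2 of nerve and Schwann cells. Over all genes with a plus-strand peak the share was 52.4%, and these small counts were not tested against it. COL1A2, DCN, LUM, PECAM1, VWF, CD163, CD68 and SOX10 had no 3′ untranslated peak. PDGFRA, a receptor of fibro-adipogenic cells, had folds of 1.71, 2.59 and 2.44 in Large White replicates 1, 2 and 3 and 2.03, 2.20 and 1.95 in Ningxiang, which overlap. CDH5, the cadherin of endothelium, had 2.16, 2.42 and 2.30 in Large White and 2.19, 1.77 and 5.54 in Ningxiang, where replicate 3 stood apart. VCAN, a matrix proteoglycan, had a peak in 5 lists and MRC1, the mannose receptor of macrophages, in 3. Of the blood and satellite cell markers none had a plus-strand peak of any class. A peak on a marker needs its mRNA in the sample but does not measure how much of it is there.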
